A study of Homo sapiens with 8 samples.

Results

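The miRNAs of the MIR424/MIR503 locus on the X chromosome were compared across 4 treatments of the human prostate cancer cell line PC-3. The members were all human miRNAs on the array named miR-424, miR-503, miR-542, miR-450a or miR-450b, on either arm, which gave 9 of 1887 miRNAs. The locus was chosen by the low values of miR-503-5p in the drug groups, so its values against DMSO are given as a description, without a test. RNA was taken 24 h after the cells received DMSO alone (the solvent), 60 µM luteolin, 60 µM gefitinib, or luteolin and gefitinib together at 60 µM each, and all drugs were dissolved in DMSO. Luteolin is a flavonoid found in food plants, and gefitinib inhibits the kinase of the epidermal growth factor receptor. There were 2 arrays per treatment, labelled as biological replicates. Whether these came from separate cultures is not stated, so the p-values measure the spread between the arrays of a treatment.

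A miRNA is cut from a hairpin in a longer primary transcript, and the strand kept guides silencing of messenger RNAs that pair with its seed, bases 2 to 8. Hairpins that lie close together on the same strand are often transcribed as one long RNA, but the level of each mature miRNA also depends on how its hairpin is processed and on how long the product lasts. miR-424-5p and miR-503-5p belong to the extended miR-15/16 family, whose known targets include cyclins and other drivers of the cell cycle. miR-542-3p is known for targeting BIRC5, which encodes the apoptosis inhibitor survivin.

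The sequences show which of these miRNAs could read the same sites. miR-424-5p (chrX:134546680-134546701) and miR-503-5p (chrX:134546371-134546393) come from neighbouring hairpins on the minus strand, and miR-16-5p is shown as the best known member of their family. All sequences and positions are from RefSeq on GRCh38.p14, and capitals mark the seed.
miR-424-5p: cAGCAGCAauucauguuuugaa
miR-503-5p: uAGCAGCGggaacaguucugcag
miR-16-5p: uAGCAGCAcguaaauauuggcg
miR-424-5p had the same seed as miR-16-5p. miR-503-5p shared bases 2 to 7 with both, and the run of shared bases ended there. Beyond base 8, miR-424-5p and miR-503-5p had the same base at 6 of 14 positions. The other arm of MIR424 and the 5p arms of MIR542, MIR450A1 and MIR450B are shown because they have seeds of their own, so that the locus yields several seed groups.
miR-424-3p: cAAAACGUgaggcgcugcuau
miR-542-5p: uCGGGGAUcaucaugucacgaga
miR-450a-5p: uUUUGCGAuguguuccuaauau
miR-450b-5p: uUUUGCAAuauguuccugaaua
miR-424-3p lies at chrX:134546644-134546664 and miR-542-5p at chrX:134541400-134541422, on the minus strand. miR-450a-5p is made by 2 genes, MIR450A1 (chrX:134540393-134540414) and MIR450A2 (chrX:134540564-134540585), which the array cannot tell apart. It matched miR-450b-5p (chrX:134540231-134540252) at 16 of 22 positions, and the run of shared seed bases from base 2 ended at base 6.

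Read in the direction of transcription, the hairpin genes stand in the order MIR424, MIR503, MIR542, MIR450A2, MIR450A1 and MIR450B. MIR424 and MIR503 are 215 bases apart, MIR503 and MIR542 are 4890 bases apart, MIR450A2 follows 733 bases after MIR542, and the last 3 are separated by 76 and 78 bases. The long non-coding RNA gene MIR503HG, as annotated by RefSeq, held the whole of MIR503, 17 of the 98 bases of MIR424 and none of the other 4 hairpins. The annotation therefore did not place all members in MIR503HG, and whether they were transcribed as one RNA in these cells was not measured.

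On the array, 6 of the 9 members were measured. miR-424-5p, miR-424-3p, miR-503-5p, miR-542-3p and miR-450a-5p were detected on all 8 arrays, and miR-542-5p on 7 of 8. miR-450a-3p, miR-450b-5p and miR-450b-3p were detected on no array, and 0 of their 30 spots per array was well above background, so that no change could be given for them. For comparison, the software detected between 395 and 481 miRNAs per array, and the 480 miRNAs detected in both replicates of 1 or more groups were tested. The epithelial markers miR-200a-3p, miR-200b-3p and miR-429 were present on all 8 arrays, miR-205-5p on 6, and miR-200c-3p and miR-141-3p on none. No marker of stroma, muscle or liver was detected. Among 4 markers of blood cells, miR-142-3p was detected on 1 array. Of the neuronal markers, miR-9-5p was present on all 8 arrays and miR-124-3p on none.

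The level of hsa-miR-503-5p, as the array names it, was far lower in all 3 drug groups than in DMSO-treated cells. The scaled total signal, a fluorescence intensity brought to a common scale between arrays, was 9.78 and 10.8 in DMSO-treated cells. It was 1.11 and 1.45 with luteolin, 1.52 and 1.51 with gefitinib, and 1.65 and 1.74 with luteolin plus gefitinib. All 6 drug arrays lay below both DMSO arrays, and the drug groups lay close to each other. The fitted means were 8.12-fold lower with luteolin, 6.79-fold lower with gefitinib and 6.07-fold lower with both, or -3.02, -2.76 and -2.60 on the log2 scale. This was the lowest log2 fold change of the 480 tested miRNAs for each single drug and the fourth lowest for both drugs. The locus was chosen by these low values, so the rank describes that choice and is no test of it. In cultures measured in bulk, fewer cells with a miRNA and less of it per cell cannot be told apart.

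**Figure D1:**
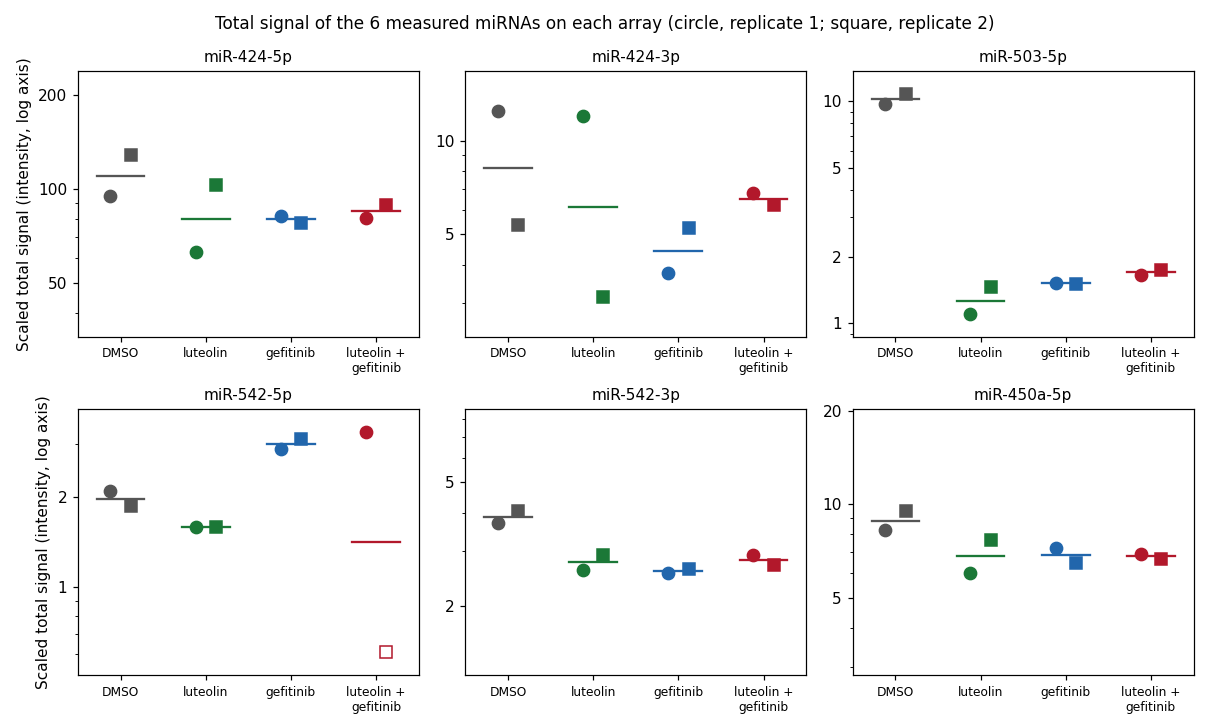
Scaled total signal (intensity, log axis) of the 6 measured miRNAs of the locus on each of the 8 arrays, by treatment; circles are replicate 1, squares replicate 2, bars the mean of the log2 values, and the open square a total that was not detected and stands at the floor of 0.609. miR-503-5p lies between 1.11 and 1.74 in the drug groups against 9.78 and 10.8 in DMSO-treated cells, while the totals of miR-542-3p lie between 2.56 and 2.93 in the drug groups against 3.72 and 4.04, and those of miR-542-5p at 2.89 and 3.11 with gefitinib against 2.10 and 1.86.

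How the scanner software builds its total bears on the size of this difference. Each miRNA is read by several probes, and the software adds up only the probes whose signal exceeds 3 times their own error. This rule gave 100% of the 15096 totals on the 8 arrays within 0.1%. For miR-503-5p, all 3 probes entered the total on both DMSO arrays, and only probe 3 entered it on each of the 6 drug arrays. The totals of the drug groups therefore leave out what probes 1 and 2 measured.

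Every probe of miR-503-5p was lower in the drug groups, and probe 3 differed by less than the totals. Probe 3, the only one counted on all 8 arrays, gave 5.31 and 5.61 in DMSO-treated cells. It gave 1.11 and 1.45 with luteolin, 1.52 and 1.51 with gefitinib, and 1.65 and 1.74 with both drugs. It was thus 4.31-fold lower with luteolin, 3.60-fold lower with gefitinib and 3.22-fold lower with both, with no overlap between DMSO and drug arrays. Probe 1 read 2.81 and 3.44 in DMSO-treated cells and was counted on no drug array, and it was at least 5.17-fold, 4.85-fold and 4.10-fold lower in the same order. Probe 2 read 1.67 and 1.76 in DMSO-treated cells and was at least 2.85-fold, 3.17-fold and 2.54-fold lower. These bounds set the DMSO mean against, on each drug array, the higher of the probe's own signal and the lowest signal counted there, and they assume that an uncounted signal lies no higher than that.

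When all probes were summed on every array, an alternative chosen after seeing the data, miR-503-5p read 9.78 and 10.8 in DMSO-treated cells, 1.79 and 2.29 with luteolin, 2.48 and 2.34 with gefitinib, and 2.50 and 2.58 with both drugs. The differences against DMSO became 5.09-fold, 4.28-fold and 4.05-fold, or -2.35, -2.10 and -2.02 on the log2 scale. The rank among the 480 miRNAs became the lowest, the second lowest and the fifth lowest. The number of probes added to the total differed between arrays for 181 of the 480 tested miRNAs (37.7%), so this is a property of the totals at large and not of miR-503-5p alone.

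**Figure D2:**
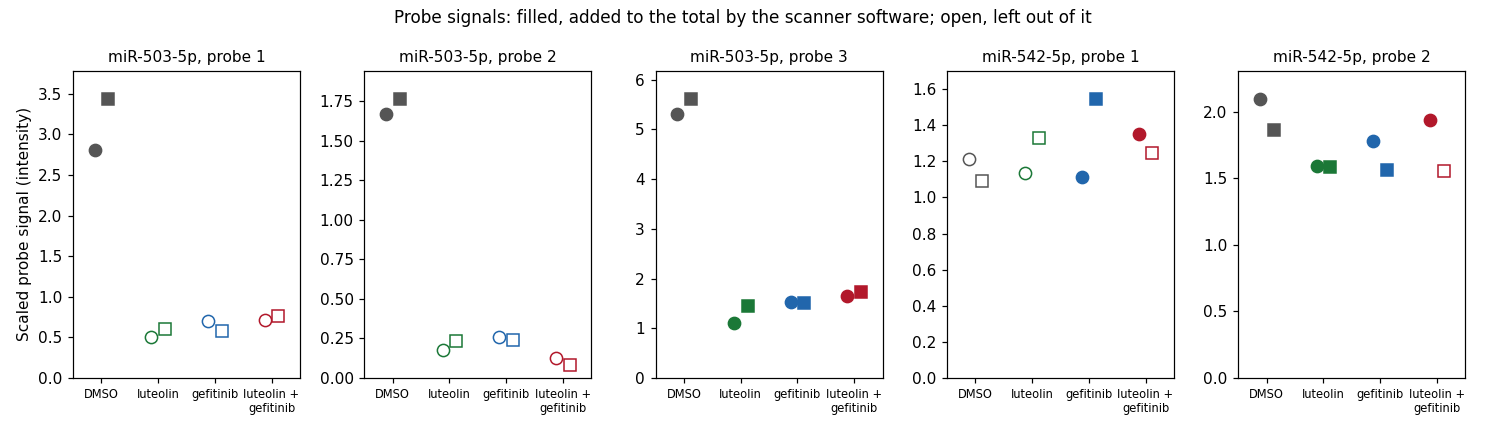
Scaled signal (intensity, linear axis from 0) of the 3 probes of miR-503-5p and the 2 probes of miR-542-5p on each array, by treatment; circles are replicate 1 and squares replicate 2, filled where the software added the probe to the total and open where it left it out. Probe 3 of miR-503-5p is counted on all arrays and reads 5.31 and 5.61 in DMSO-treated cells and between 1.11 and 1.74 in the drug groups, while the probes of miR-542-5p stay at similar signals and differ in whether they are counted.

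hsa-miR-424-5p, the neighbour of miR-503-5p with the related seed, did not pass the test in any drug group. Its total was 94.7 and 129 in DMSO-treated cells, 62.5 and 103 with luteolin, 82.0 and 77.6 with gefitinib, and 80.8 and 89.0 with both drugs. Replicate 2 was the higher in DMSO-treated cells, with luteolin and with both drugs, and replicate 1 with gefitinib. The gefitinib and combined arrays lay below both DMSO arrays, and replicate 2 of luteolin lay between them, but before scaling both gefitinib arrays and replicate 1 of both drugs also lay between them. The log2 fold changes were -0.46 with luteolin, -0.47 with gefitinib and -0.38 with both drugs (SE 0.28, adjusted p = 0.781, 0.435 and 0.466 with limma). Leaving out 1 array gave -0.82 (without replicate 2 of luteolin) to -0.10 (without replicate 1) with luteolin, -0.69 and -0.25 with gefitinib and -0.60 and -0.16 with both drugs (without replicate 1 and 2 of DMSO). The values with luteolin and both drugs were -0.10 and -0.03 when the mean processed signal was used and scaled by the 75th percentile over all miRNAs. The value with gefitinib was -0.10 without scaling. The 95% interval of the luteolin value ran from -1.16 to 0.24, and that of the combined value from -1.08 to 0.32. Its 2 probes were counted on all 8 arrays and gave values 1.32-fold and 1.48-fold lower with luteolin, 1.31-fold and 1.51-fold lower with gefitinib, and 1.29-fold and 1.31-fold lower with both.

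The opposite arm of the same hairpin, hsa-miR-424-3p, varied widely between replicates and did not pass the test. Its total was 12.5 and 5.38 in DMSO-treated cells, 12.0 and 3.15 with luteolin, 3.75 and 5.24 with gefitinib, and 6.82 and 6.23 with both drugs. Replicates differed 2.32-fold in the DMSO group and 3.80-fold in the luteolin group. Replicate 1 was the higher in both of these groups, and replicate 2 the higher with gefitinib. Gefitinib was the only group with both arrays below both DMSO arrays, and before scaling 1 of its arrays lay there. Replicate 2 of luteolin also lay below both DMSO arrays, before scaling too. The log2 fold changes were -0.42, -0.89 and -0.33 with an SE of 0.70 (adjusted p = 0.958, 0.546 and 0.825 with limma). Without replicate 1 of DMSO the gefitinib value was -0.28, and without replicate 2 it was -1.50. Only 1 of its 2 probes was ever counted. The 95% interval of its luteolin value ran from -2.16 to 1.33.

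Of the 5 members tested against DMSO, hsa-miR-542-3p was the one that passed, with gefitinib. Its total was 3.72 and 4.04 in DMSO-treated cells, 2.62 and 2.92 with luteolin, 2.56 and 2.63 with gefitinib, and 2.93 and 2.72 with both drugs. All 6 drug arrays lay below both DMSO arrays, before scaling too. It fell 1.49-fold with gefitinib (log2 fold change -0.58, SE 0.13, adjusted p = 0.0495 with limma). That call sat at the threshold and was lost in 16 of 22 alternatives, among them leaving out replicate 1 or replicate 2 of DMSO, of gefitinib or of luteolin plus gefitinib, where the adjusted p rose to between 0.0705 and 0.197. With luteolin the log2 fold change was -0.48 (adjusted p = 0.275 with limma), and with both drugs it was -0.46 (adjusted p = 0.0938). The gefitinib value was -0.21 without scaling, and the combined value was -0.07 with quantile normalization. The luteolin value was -0.17 with the mean processed signal and the percentile over all miRNAs. The same 2 of its 3 probes were counted on all 8 arrays, and with gefitinib they were 1.42-fold and 1.55-fold lower.

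hsa-miR-542-5p, the other arm, changed sign with gefitinib between 2 ways of adding up its probes. Its total was 2.10 and 1.86 in DMSO-treated cells, 1.59 and 1.58 with luteolin, 2.89 and 3.11 with gefitinib, and 3.29 on replicate 1 of luteolin plus gefitinib, with no detection on replicate 2. By the total, gefitinib arrays lay above both DMSO arrays (log2 fold change 0.60, SE 0.73, adjusted p = 0.711 with limma). However, the total held only probe 2 in the DMSO and luteolin groups, and both probes in the gefitinib group. With both probes summed on every array, it was 3.31 and 2.95 in DMSO-treated cells and 2.89 and 3.11 with gefitinib, a log2 fold change of -0.06 (SE 0.15, adjusted p = 0.862). The undetected array read 2.80 by that sum, against 3.29 on its replicate. The log2 fold changes with luteolin and with both drugs were -0.32 and -0.48 by the total and -0.15 and -0.04 by the sum of both probes. None of these passed the test.

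hsa-miR-450a-5p did not pass the test either. Its total was 8.23 and 9.49 in DMSO-treated cells, 6.01 and 7.69 with luteolin, 7.25 and 6.48 with gefitinib, and 6.94 and 6.69 with both drugs. All 6 drug arrays lay below both DMSO arrays, but before scaling replicate 1 of gefitinib (8.42) lay above both (7.73 and 8.36) and replicate 2 (7.67) below. The log2 fold changes were -0.38, -0.37 and -0.38 (SE 0.18, adjusted p = 0.602, 0.304 and 0.255 with limma). Without replicate 2 of luteolin the luteolin value was -0.56, and without replicate 1 it was -0.20. The gefitinib value was -0.0008 without scaling. The values with luteolin and both drugs were -0.03 and -0.01 with the mean processed signal and the percentile over all miRNAs. Both probes were counted on all arrays, and the probe values were between 1.25-fold and 1.34-fold lower.

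**Figure D3:**
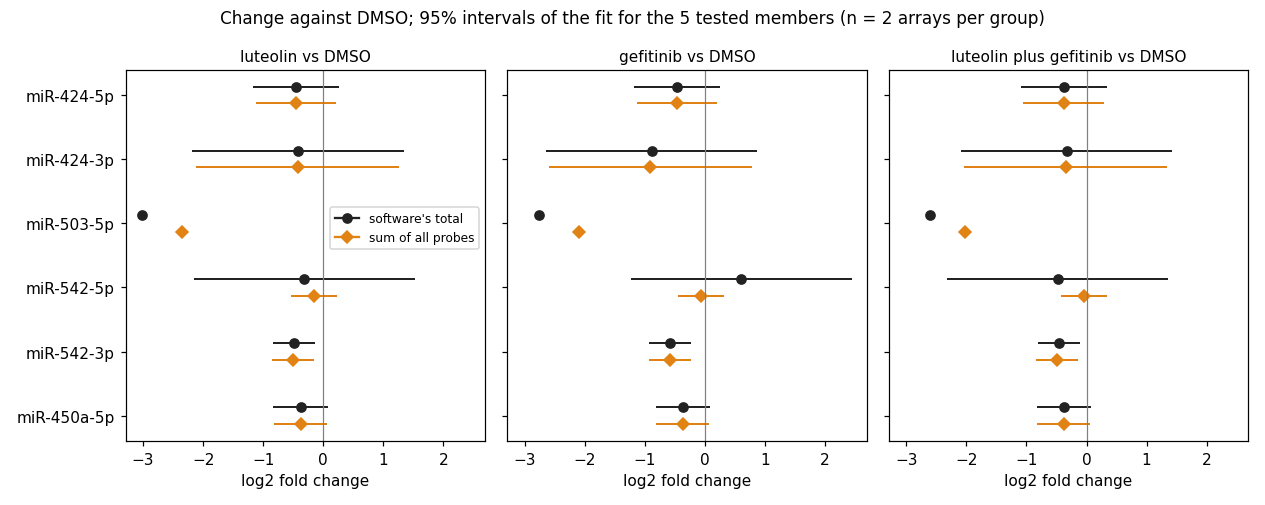
Log2 fold change against DMSO of the 6 measured miRNAs of the locus in the 3 drug groups; lines are 95% intervals of the fit over 2 arrays per group, drawn for the 5 members that were tested and not for miR-503-5p; black circles are the software's totals and orange diamonds the sum of all probes. miR-503-5p stands at -3.02, -2.76 and -2.60 by the total and at -2.35, -2.10 and -2.02 by the sum, and the value of 0.60 for miR-542-5p with gefitinib becomes -0.06.

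The counts of the 5 members other than miR-503-5p that passed against DMSO were near the shares of all tested miRNAs. With luteolin 0 of 5 passed, where 2.08% of the 480 miRNAs did (1 of 5 had an unadjusted p under 0.05 with limma, beside 41 of the 480, and 0 passed with the methods' t-test after adjustment). With gefitinib 1 of 5 passed, miR-542-3p, where 12.1% of the 480 did. With both drugs 0 of 5 passed, where 12.1% of the 480 did (1 of 5 at an unadjusted p under 0.05 with limma, beside 124 of the 480, and 0 with the t-test after adjustment). At an unadjusted p under 0.05 the t-test gave 1, 2 and 1 of 5 with luteolin, gefitinib and both, beside 26, 118 and 86 of the 480. The t-test was run here on the scaled log2 values, and the authors' methods describe no adjustment. The number of the 480 that passed with limma rested on single arrays, and leaving out 1 array lowered it in some cases and raised it in others. Either luteolin array left out raised the counts with gefitinib and with both drugs. The 10 with luteolin became 6 without replicate 2 of DMSO and 18 without replicate 2 of luteolin. The 58 with gefitinib became 18 without either DMSO array, 15 and 17 without replicate 1 and 2 of gefitinib, and 29 without either array of both drugs. The 58 with both drugs became 31 and 14 without replicate 1 and 2 of DMSO, 28 without either gefitinib array, and 20 without replicate 2 of both drugs. Without scaling, 8, 42 and 30 of the 480 passed with luteolin, gefitinib and both drugs. With the mean processed signal and the percentile over all miRNAs, 8, 73 and 119 did. The 3 comparisons share the DMSO arrays. The median log2 fold change of the 5 was -0.42 with luteolin, -0.47 with gefitinib and -0.38 with both, and that of the 480 was -0.10, -0.10 and -0.16. Scaling moved both medians together. With the percentile over all miRNAs, where the mean processed signal also replaced the total, the 5 stood at -0.09, -0.43 and -0.01. The 480 stood there at 0.21, -0.02 and 0.22. Without scaling the 5 stood at -0.26, -0.10 and -0.35 and the 480 at 0.03, 0.26 and -0.13. The difference between the medians ran from -0.28 to -0.31 with luteolin, from -0.34 to -0.40 with gefitinib and from -0.10 to -0.23 with both drugs. These ranges cover 4 settings, the main one and quantile normalization among them. With luteolin, 3 of 5 did not overlap DMSO and were lower, against 17.7% of the 480. With gefitinib, 4 of 5 were lower without overlap, against 36%, and 1 was higher without overlap, which was the total of miR-542-5p, against 21.5% of the 480. With both drugs, 3 of 5 were lower without overlap, against 33.3%. Before scaling the counts of lower members were 2, 1 and 2 of 5, against 9.38%, 10.8% and 21.0% of the 480. With gefitinib 1 of 5 was then higher without overlap, against 49.4% of the 480.

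By the totals, miR-503-5p had the largest difference from DMSO of the measured members. In order along the locus, the log2 fold changes with luteolin were -0.46 for miR-424-5p, -0.42 for miR-424-3p, -3.02 for miR-503-5p, -0.32 for miR-542-5p, -0.48 for miR-542-3p and -0.38 for miR-450a-5p. The difference of miR-503-5p from each of the 5 other members thus ran from -2.54 to -2.70 log2 units with luteolin. Its difference from miR-424-5p was -2.30 with gefitinib and -2.22 with both drugs. By the sum of all probes the values were -2.35 for miR-503-5p against -0.46 for miR-424-5p with luteolin. With normexp background correction, whose offset of 50 exceeds the signals of miR-503-5p, this order turned, with -0.28 for miR-503-5p against -0.35 for miR-424-5p with luteolin, -0.28 against -0.38 with gefitinib and -0.26 against -0.32 with both drugs. With luteolin, between 14.0% and 23.8% of the 480 miRNAs had a lower log2 fold change than the 5 other members. With gefitinib this share ran from 6.88% for miR-424-3p to 84.6% for miR-542-5p, and with both drugs from 27.3% to 35.8%. The difference between miR-503-5p and its neighbours rests on the values that chose the locus and is given without a test.

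**Figure D4:**
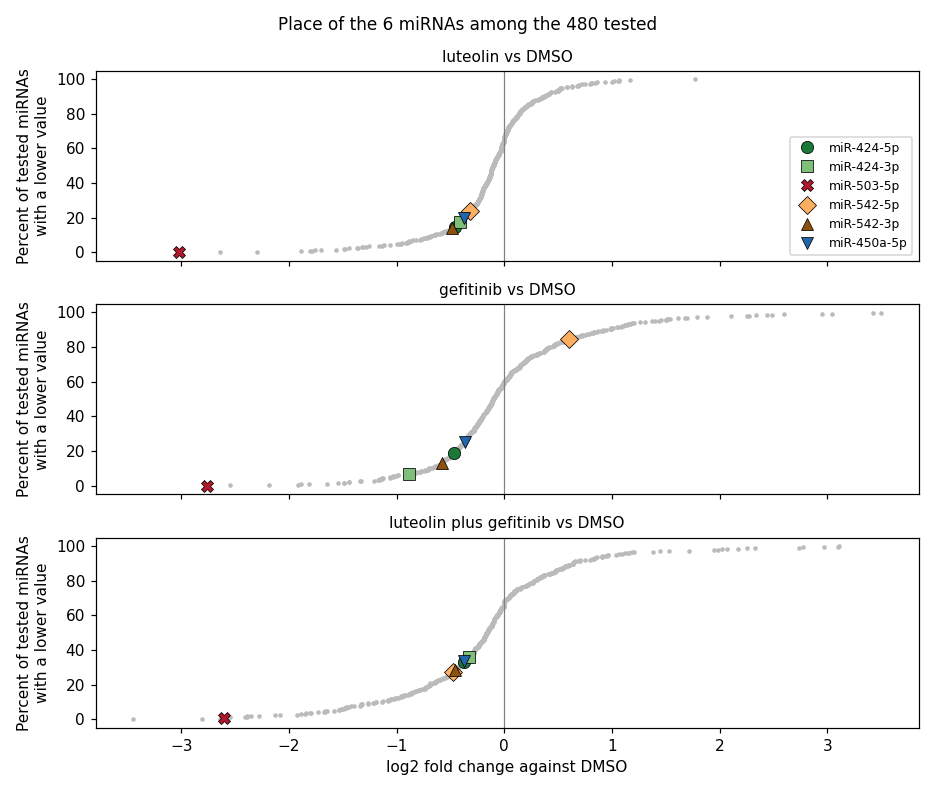
Log2 fold change against DMSO (horizontal axis) and the percent of the 480 tested miRNAs with a lower value (vertical axis) in each drug group; grey points are all tested miRNAs and coloured symbols the 6 measured miRNAs of the locus. miR-503-5p is at the low end in all 3 panels, and the other members lie between 14.0% and 23.8% with luteolin and between 27.3% and 35.8% with both drugs, with a wider range for gefitinib.

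The drugs were also compared with each other. For miR-503-5p, luteolin plus gefitinib was 0.42 log2 units above luteolin alone (95% interval -0.01 to 0.85, adjusted p = 0.328 with limma) and 0.16 above gefitinib alone (interval -0.26 to 0.59, adjusted p = 0.839). Gefitinib was 0.26 above luteolin (interval -0.17 to 0.68, adjusted p = 0.591). None of these passed the test, and the intervals allow differences between the drug groups of up to about 0.85 log2 units. These comparisons use the drug-group values by which the locus was chosen. Without replicate 1 of luteolin, the 0.42 became 0.22 and the 0.26 became 0.06. None of the 6 measured members passed in these comparisons, with 0 of 6 for luteolin plus gefitinib against luteolin (1.88% of the 480), 0 of 6 against gefitinib (4.58%) and 0 of 6 for gefitinib against luteolin (5%). These shares rest on 9, 22 and 24 calls that single arrays moved in both directions. The 9 became 3 without either gefitinib array, 18 and 15 without replicate 1 and 2 of luteolin, and 17 and 4 without replicate 1 and 2 of both drugs. The 22 became 11 and 13 without replicate 1 and 2 of gefitinib and 14 without replicate 2 of both drugs, and the 24 became 1 without either gefitinib array and 48 without replicate 1 of luteolin. At an unadjusted p under 0.05 limma gave 0 of 6 in each, beside 74, 60 and 80 of the 480, and the methods' t-test gave 0, 1 (miR-503-5p) and 1 (miR-542-5p) of 6, beside 29, 86 and 68 of the 480. After adjustment the t-test gave 0 of 6 in each. Without replicate 1 of luteolin plus gefitinib, miR-542-5p passed in each of these 3 comparisons, with adjusted p of 0.0256, 0.00812 and 0.0386 in the order given, and without replicate 2 it passed for gefitinib against luteolin. With replicate 1 left out, luteolin plus gefitinib is represented by replicate 2, on which the total was not detected, and that lone array is assumed to vary like the other groups. By the sum of all probes on all 8 arrays, the 3 differences of miR-542-5p were 0.11, 0.02 and 0.09 log2 units, and none passed.

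If the drugs had acted independently on the log2 scale, the combined change would have been the sum of the single changes. For miR-503-5p the combined value lay 3.18 log2 units above that sum by the total, and 2.43 above it by the sum of all probes. These values follow from 3 drug groups of nearly equal signal, close to the level at which probes stop being counted, and are given without a test. Of the other 5 members, 0 passed the test of the interaction, where 3.33% of the 480 did, with 1 of 5 at an unadjusted p under 0.05 with limma (miR-542-3p), beside 49 of the 480. The 16 calls behind the 3.33% became fewer on leaving out any array but replicate 2 of luteolin, and more on leaving out that array. Without replicate 1 of luteolin plus gefitinib, miR-542-5p passed (adjusted p = 0.0291), and by the sum of all probes 0 of 5 passed.

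The seed relatives of miR-424-5p and miR-503-5p from other loci were read beside the 2.08%, 12.1% and 12.1% of the 480 that passed with luteolin, gefitinib and both drugs, and the 41, 114 and 124 of the 480 with an unadjusted p under 0.05. Of miR-15a-5p, miR-15b-5p, miR-16-5p, miR-195-5p and miR-497-5p, 0 of 5 passed with limma in any drug group, 0 had an unadjusted p under 0.05, and 0 passed with the methods' t-test. With 5 miRNAs, the counts of 0 called are near those shares. Their median log2 fold changes were -0.12 with luteolin, -0.05 with gefitinib and -0.08 with both drugs, beside -0.10, -0.10 and -0.16 for all tested miRNAs. miR-16-5p itself stood at -0.13 with gefitinib (SE 0.29, adjusted p = 0.845 with limma) and at -0.15 with both drugs (adjusted p = 0.798).

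Of 2 other clusters on the X chromosome, the neighbouring cluster of miR-106a and miR-363 gave 0 of 4 tested members past the threshold in each drug group with limma and with the t-test, and 0, 2 and 0 of 4 at an unadjusted p under 0.05 with limma for luteolin, gefitinib and both, beside the same shares of the 480. The 4 were miR-18b-5p, miR-20b-5p, miR-19b-3p and miR-92a-3p. Neither miRNA that names the cluster was measured, as miR-106a-5p was not on the array and miR-363-3p was detected on no array. The medians of the 4 were -0.24 with luteolin, -0.41 with gefitinib and -0.22 with both drugs. From which locus their signals came was not measured, so these medians describe the 4 miRNAs and not the cluster as a whole. The cluster within CLCN5, a chloride transporter gene, had 11 tested members. With luteolin 0 of 11 passed with limma or the t-test, and 0 had an unadjusted p under 0.05. With gefitinib 2 rose, miR-188-5p by 1.69 log2 units (SE 0.28, adjusted p = 0.0190) and miR-500a-5p by 0.80 (SE 0.15, adjusted p = 0.0309), and with both drugs 1 rose, miR-501-5p by 0.82 (SE 0.13, adjusted p = 0.0160). At an unadjusted p under 0.05 limma gave 3 and 2 of 11 with gefitinib and with both drugs. None of these 3 calls held with the methods' t-test after adjustment (0 of 11 in both groups). The calls of miR-188-5p and miR-500a-5p were lost without either array of DMSO, gefitinib or luteolin plus gefitinib (adjusted p from 0.0504 to 0.167), and that of miR-501-5p without replicate 2 of DMSO or of luteolin plus gefitinib (0.0777 and 0.0735). The limma counts of 0, 2 and 1 of 11 stand beside 2.08%, 12.1% and 12.1% of the 480. The medians of the 11 were -0.18, 0.18 and -0.23.

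Signals of some miRNAs outside the locus followed those of its members over the 8 arrays. For miR-503-5p, the closest of 360 miRNAs were miR-17-3p (Pearson's r = 0.92), miR-15b-3p (0.92) and miR-193a-3p (0.91). For miR-424-5p they were miR-32-5p (0.94), miR-27b-3p (0.93) and miR-18a-5p (0.93). Within the locus, r was 0.96 between miR-503-5p and miR-542-3p, 0.93 between miR-424-5p and miR-450a-5p, and -0.39 between both arms of MIR424. These are descriptions over 8 arrays that share their scaling, and for miR-503-5p the DMSO arrays stand apart from the 6 drug arrays, so that an r over all 8 arrays carries that step. miR-15b-3p, which is processed from the hairpin of the seed relative miR-15b-5p, had log2 fold changes of -1.26, -1.49 and -1.74 with luteolin, gefitinib and both drugs by the total, and of -0.82, -1.15 and -1.29 by the sum of all probes.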

How the data were processed

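Total RNA of PC-3 cells was labelled with Cy3 and hybridised by the authors to Agilent 1-colour human miRNA arrays, 8 arrays on 1 slide read in 1 scan, and Agilent Feature Extraction 10.7.3.1 (per the file headers) gave background-subtracted intensity without normalization between arrays. The deposited spot intensity of the series table equalled the processed signal of the scanner files. No spot of a miRNA probe was saturated, and the number of arrays limits the precision.

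The deposited total intensity of each miRNA was scaled to the 75th percentile over the 365 miRNAs detected on all 8 arrays (60.5 to 92.7 before scaling), raised to a floor of 0.609 and put on the log2 scale, where the authors gave linear values. The floor is the median over arrays of the lowest detected signal. In limma 3.58.1 (R 4.3.3), 1 fit of the 4 groups over 480 miRNAs left 4 residual degrees of freedom, with prior degrees of freedom of 1.66. A miRNA passed when its two-sided p, adjusted by Benjamini-Hochberg over the 480, was under 0.05. The script was tested on simulated data. An exact permutation test of 2 arrays against 2 cannot go below p = 0.333 and was not used. Alternatives changed the scaling, the summary of spots, the background correction, the filter, the floor, the arrays in the fit, the test (the methods' t-test), the replicate block, the arrays left out and the probes summed.

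Tables and figures were made in Python 3.11.15 with pandas 2.3.3, NumPy 2.4.6 and Matplotlib 3.10.9. Samples were grouped by the treatment in the labels, and none was left out. The miRNAs named were the members, up to 5 miRNAs with the highest r to miR-503-5p or miR-424-5p, and listed relatives that passed the test. The members and lists were chosen with earlier results of these data known. The array design names an older genome build than the sequence table, which held 7 of the 9 members.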

Additional observations from a re-analysis of the deposited data

How the results depend on the processing

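With 2 arrays per group and drug-group signals of miR-503-5p near the counting limit of its probes, sizes depend on the summary. miR-503-5p stayed lower than DMSO under all 22 alternatives, with log2 fold changes from -3.22 to -0.28 with luteolin, -3.05 to -0.28 with gefitinib and -2.67 to -0.26 with both drugs. The smallest values came from normexp, whose offset of 50 exceeds its signals. The count for gefitinib against DMSO (1, miR-542-3p) became 0 with no scaling, quantile normalization, normexp, no filter and only miRNAs detected on all 8 arrays. It also became 0 with log2 of the signal plus 16, the compared groups only, the methods' t-test and the replicate block. The 75th percentile over all miRNAs, taken with the mean processed signal, gave 0 as well, where the mean processed signal under the main scaling gave 1. Leaving out some single arrays also removed the call. The count for both drugs against DMSO became 1 (miR-542-3p) with the mean processed signal and with the series table. Leaving out 1 array gave 0 to 1 there, in all 3 comparisons between drug groups and for the interaction. Without replicate 1 of both drugs, the value of miR-542-5p against DMSO was -1.70. That value rests on replicate 2 alone, whose total was not detected and was set to the floor.

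Over all 480 miRNAs, the sum of all probes gave 8, 55 and 84 calls for luteolin, gefitinib and both drugs against DMSO (10, 58 and 58 by the total), 12 for both drugs against gefitinib (22) and 2 for the interaction (16). Among values against DMSO, those of miR-542-5p changed sign in each drug group. With luteolin they became 0.22 with the percentile over all miRNAs, taken with the mean processed signal, and 0.0122 with normexp. With gefitinib the value became -0.059 with the sum of all probes. With both drugs it became 0.52 with that percentile, and 0.083 with the mean processed signal under the main scaling. It became 0.0834 with the series table and 0.0298 with normexp, and ran from -1.70 to 0.73 leaving out 1 array. Likewise, miR-424-3p gave -1.38 to 0.55 with luteolin and -0.94 to 0.28 with both drugs leaving out 1 array (0.19 and 0.28 without replicate 1 of DMSO, 0.55 without replicate 2 of luteolin), and 0.0066 with both drugs under that percentile. Between drug groups, values of several members changed sign, among them miR-542-5p for both drugs against luteolin (-0.16 by the total, 0.11 by the sum of all probes) and against gefitinib (-1.08 and 0.02), and miR-424-5p and miR-424-3p for both drugs against luteolin (0.08 and 0.08, but -0.05 and -0.04 without scaling). miR-503-5p gave -0.18 for both drugs against gefitinib without scaling, and for gefitinib against luteolin -0.0307 with quantile normalization and -0.12 with that percentile. The cause was not tested.

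The replicate numbers follow the 2 rows of the slide. Deviations of same-numbered arrays correlated at 0.91 between DMSO and luteolin, 0.41 between DMSO and both drugs and 0.46 between luteolin and both drugs. They correlated at -0.13, -0.09 and 0.07 between gefitinib and DMSO, luteolin and both drugs. The main fit did not take the numbers as pairs. A deviation shared by DMSO and luteolin therefore counts there as spread between arrays, in the SE and the adjusted p. With the replicate block, 0 of 5 members passed against DMSO in each drug group, and the adjusted p of miR-542-3p with gefitinib was 0.0534.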
